A study of Arabidopsis thaliana with 6 samples.

Results

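PLT1 (AT3G20840), PLT2 (AT1G51190) and BBM (AT5G17430) encode PLETHORA transcription factors of the AP2 class, and their transcripts were compared in Arabidopsis thaliana seedlings of wild type and of a mutant of DEMETER (DME). The 3 genes were taken by locus code from the 5322 rows of the authors' deposited table, which compares a dme mutant with wild type (WT) and keeps a gene if it changed 2-fold or more with an adjusted p under 0.05. Their place among the listed genes therefore chose them, and their fold changes are given as a description, with no test. Both groups were whole seedlings of the Ler accession, grown on MS plates and sampled 7 days after germination, with 3 libraries each. The mutant genotype is labelled dme/-, with the allele and the parents of the plants not given in the sources used here. The labels do not tell if libraries of the same genotype were separate cultures, and the authors' p-values then measure a spread between libraries that may be technical. DME encodes a DNA glycosylase that removes methylated cytosine from DNA.

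PLETHORA proteins hold the root stem cell niche in place: where their level is high, at the tip, cells keep stem cell identity, at intermediate levels cells divide, and where it falls cells elongate and differentiate. Their transcription is set up by auxin, and the sulfated RGF peptides, perceived by RGI receptor kinases, widen the zone in which the proteins persist. BBM, also called PLT4, acts with PLT2 in the embryo and can start embryo formation when it is overexpressed. PLT3, PLT5 and PLT7 act in lateral root primordia and in shoot organ arrangement, and ANT, the founding member of the family, promotes growth of shoot organs.

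The 3 genes lie apart in the genome and share an exon plan with the rest of their family. In assembly TAIR10.1, PLT1 is at chr3:7300444-7303693 on the plus strand, PLT2 at chr1:18977176-18980618 on the plus strand and BBM at chr5:5742393-5745748 on the minus strand. In the annotation of assembly TAIR10.1, all 8 AINTEGUMENTA-like genes (ANT, PLT1, PLT2, PLT3, BBM, PLT5, PLT7 and AT1G72570) hold consecutive exons of 83, 9 and 89 bases, followed by 202 bases of exon sequence before the last exon. In PLT1 and BBM those 202 bases are split into exons of 74, 51 and 77 bases. In PLT2 the last of these are joined, giving 74 and 128 bases. PLT2 instead has an additional early exon, so that each of the 3 genes has 9 exons. The exon of 9 bases reads tttacttgg in PLT1, tctacttag in PLT2 and tttatctgg in BBM.

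**Figure D1:**
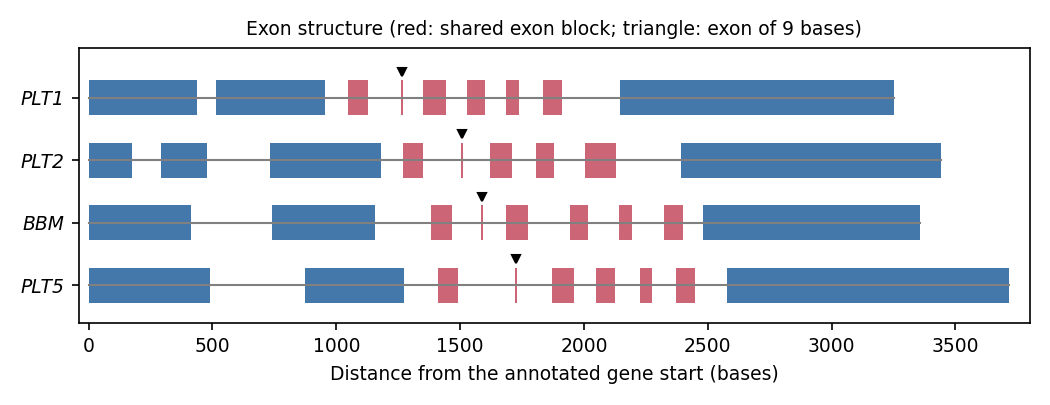
Exons (boxes) and introns (lines) of PLT1, PLT2, BBM and PLT5, drawn to scale from the annotated gene start in bases, with the longest annotated transcript of each gene. The exon block common to the 4 genes is in red, the triangle marks its exon of 9 bases, and PLT2 differs by an extra early exon and by the joined 128-base exon.

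Sequence bears on how far reads of these genes can be told apart, here by the letters of the TAIR10.1 reference, which is the Columbia accession and not Ler. PLT1 and PLT2 were the most alike of the 3 over the 383-base exon block, with 334 identical bases (87.2%). PLT1 and BBM shared 312 (81.5%) and PLT2 and BBM 306 (79.9%). Over whole transcripts, the longest stretch without a mismatch was 38 bases between PLT1 and PLT2, 26 between PLT1 and BBM and 17 between PLT2 and BBM. A read longer than these stretches differs between these annotated transcripts in at least 1 base, whereas read length and the treatment of reads with several matches are unstated in the sources used here. No annotated gene among the 5 on each side of the 3 genes overlaps any of them, so no antisense or overlapping neighbour in that annotation could share reads with them.

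All 3 genes were higher in dme. Of annotated protein-coding genes, 13.6% are listed as higher and 72.8% of the measurements in the authors' deposited table are higher, but these shares cannot be set against the 3 genes, which were chosen from that list. PLT1 rose most, by 2.57 log2 units (5.93-fold, adjusted p = 5.54e-08) in the authors' deposited table. PLT2 rose by 2.04 log2 units (4.13-fold, adjusted p = 8.88e-06) in the authors' deposited table. BBM rose least, by 1.54 log2 units (2.90-fold, adjusted p = 9.63e-05) in the authors' deposited table.

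The deposited values hold no measurement per library, so the spread between the 3 libraries of a genotype cannot be shown and no fold has an error of its own. A bound on the error can be read from each adjusted p if the authors' test was a Wald test, since the standard error is then at most the fold divided by the normal quantile of that p. It was at most 0.473 log2 units for PLT1, 0.460 for PLT2 and 0.394 for BBM. The corresponding 95% intervals of the log2 fold change are no wider than 1.64 to 3.49 for PLT1, 1.14 to 2.95 for PLT2 and 0.76 to 2.31 for BBM. That these intervals lie above 0 holds by construction, since only genes with an adjusted p under 0.05 are listed. They overlap one another, so the order PLT1, PLT2, BBM is that of the estimates only. The differences between the folds were not tested.

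The 3 transcripts had low mean counts beside the other listed genes, all of which passed the fold and adjusted p thresholds. How they rank among all transcripts of the seedling cannot be stated. Averaged over all 6 libraries, the authors' deposited table gives 64.0 normalized counts for PLT1, 53.6 for BBM and 37.9 for PLT2, against a median of 204.3 over the 5311 measurements (after 11 pairs of rows with repeated values were each counted once). Of those measurements, 28.3% had a lower mean than PLT1, 24.9% than BBM and 19.0% than PLT2. Their folds stood in the middle of the higher genes: 63.5% of the 3867 higher genes had a smaller fold than PLT1, 49.0% than PLT2 and 28.7% than BBM. In the authors' deposited table the higher genes had a median of 2.07 log2 units.

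Group means follow from the mean over all libraries and the fold, if both are plain averages of 3 against 3 libraries. PLT1 then went from 18.5 normalized counts in WT to 109.6 in dme. PLT2 went from 14.8 to 61.0 and BBM from 27.5 to 79.7. In WT, BBM was thus the most abundant of the 3 by normalized count, and in dme PLT1 was. Per kilobase of transcript the order was the same: in WT the level was 13.2 normalized counts per kilobase for BBM, 7.80 for PLT1 and 6.59 for PLT2. In dme it was 46.3 for PLT1, 38.2 for BBM and 27.2 for PLT2. Whether neighbours in either order differ beyond the spread of the libraries cannot be stated.

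**Figure D2:**
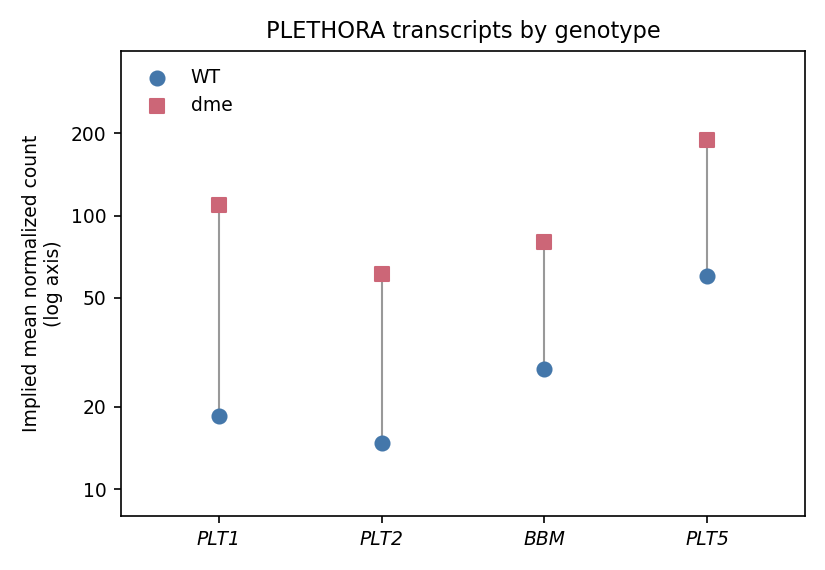
Mean normalized count of PLT1, PLT2, BBM and PLT5 in WT (circles) and dme (squares) implied by the authors' mean and fold, on a log axis, with no error since no value per library is given. Each line joins the genotypes of a gene: all 4 genes are higher in dme, PLT1 by the longest distance (18.5 to 109.6) and PLT5 at the highest level (60.0 to 189.4).

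PLT5, a lateral root member and the only other family gene in the authors' deposited table, was also higher, by 1.66 log2 units (3.15-fold, adjusted p = 3.63e-07) with 124.7 normalized counts on average in the authors' deposited table. Its level per kilobase was above that of each of the 3 genes, at 24.9 normalized counts in WT and 78.5 in dme. Of the 8 family genes, 4 were thus listed as higher and 0 as lower, and 3 of the 4 are those chosen. The other 4, ANT, PLT3, PLT7 and AT1G72570, were not listed, and such genes may have changed by less than 2-fold, missed the threshold or not been tested. None of 10 other genes of the AP2 subfamily (AP2, its TOE, SMZ and SNZ relatives, the WRI genes and AT2G41710) was listed, where 18.5% of annotated protein-coding genes are listed in either direction.

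Among regulators of the root stem cell niche and root cap, 6 of 25 were listed as higher and 2 as lower, against 13.6% and 4.83% of annotated protein-coding genes. This list and those below were written with earlier results of these data known, so their counts beside such shares are a description only. WOX5, the homeobox factor of the quiescent centre, rose by 2.08 log2 units, close to PLT2, with only 10.8 normalized counts on average and adjusted p = 0.0157 in the authors' deposited table. MGP, a zinc finger partner of SHR and SCR in the ground tissue, rose by 2.44, and WIP4, a zinc finger factor of root initiation, by 2.64 log2 units in the authors' deposited table. The NAC factors of root cap maturation rose together: SMB by 2.36, BRN1 by 3.29 and BRN2 by 3.59 log2 units in the authors' deposited table. FEZ, the NAC factor that promotes the divisions forming the root cap, was not listed, and nor were SHR, SCR, JKD and the quiescence factor BRAVO.

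The 2 lower genes of that list also act outside the root, and whether that bears on their direction was not tested. ACR4, a receptor kinase of columella stem cells and of shoot epidermis, stood at -1.30 log2 units with 664.6 normalized counts on average in the authors' deposited table. NTT, a WIP zinc finger gene that acts redundantly with WIP4 and WIP5 in the embryonic root and also in the pistil, stood at -1.15 log2 units in the authors' deposited table. WIP5 was not listed.

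The RGF pathway, which acts upstream of PLETHORA proteins, had 6 of 16 members listed as higher and 2 as lower, beside background shares of 13.6% and 4.83%. Both listed receptor genes rose, RGI1 (AT3G24240) by 3.06 and RGI2 (AT5G48940) by 2.68 log2 units, with 559.2 and 368.5 normalized counts on average in the authors' deposited table. RITF1, a PLATZ transcription factor of the pathway that links RGF perception to PLETHORA levels, rose by 2.47 log2 units (adjusted p = 1.17e-10) in the authors' deposited table. Of the peptide genes, RGF2 rose by 3.24, RGF3 by 2.34 and RGF7 by 3.57 log2 units in the authors' deposited table. RGF2 had a mean of only 12.6 normalized counts there. RGF6 and RGF9, also named GOLVEN 1 and GOLVEN 2 and known from bending of the hypocotyl and root, went the other way, at -1.22 and -1.88 log2 units in the authors' deposited table. RGF1, a root tip peptide gene, and TPST, the enzyme that sulfates these peptides, were not listed.

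**Figure D3:**
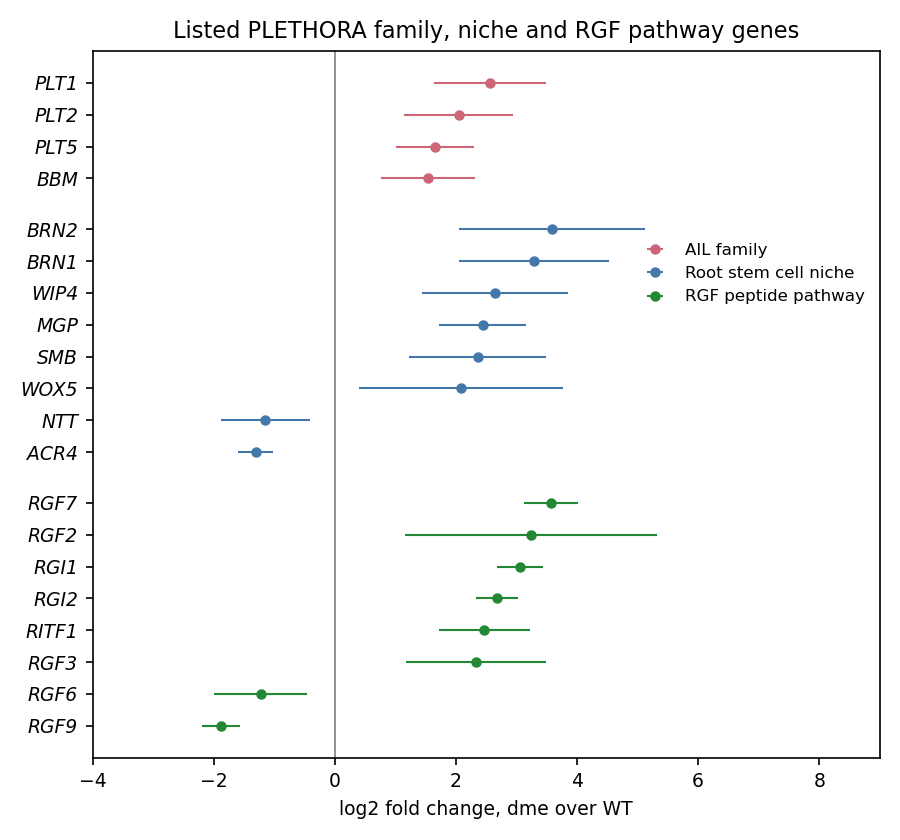
Log2 fold change (dme over WT) of the listed genes of the PLETHORA family, the root stem cell niche list and the RGF pathway list, from the authors' deposited table. Bars are the widest 95% intervals allowed by the adjusted p under a Wald test: PLT1, PLT2, BBM and PLT5 lie between 1.54 and 2.57, and ACR4, NTT, RGF6 and RGF9 are the genes below 0.

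Auxin genes went both ways, with 2 higher and 4 lower of 24 genes of auxin synthesis and response. The share listed as higher is thus below the 13.6% of all protein-coding genes and the share listed as lower above their 4.83%. Among the YUC flavin monooxygenases of auxin synthesis, YUC5 stood at 2.28 and YUC1 at 3.27 log2 units in the authors' deposited table, where YUC1 had adjusted p = 0.0203. YUC2 stood at -2.47 and YUC6 at -1.31 in the authors' deposited table. The auxin receptor genes TIR1 and AFB3 stood at -1.01 and -1.44 log2 units in the authors' deposited table. MP, NPH4 (ARF7) and ARF19, the auxin response factors that activate PLETHORA genes in embryo or root, were not listed. Of 6 auxin transport genes, the root carrier gene PIN2 was at 3.51 log2 units and PIN3 and PIN4 at -1.48 and -1.49 in the authors' deposited table.

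The counts of the other lists likewise stand, as a description only, beside the 13.6% of protein-coding genes listed as higher, the 4.83% listed as lower and the 18.5% listed in either direction. Of 9 lateral root genes, 3 were higher and 0 lower: LBD16 rose by 2.06 and MAKR4 by 1.21 log2 units in the authors' deposited table. PUCHI, an AP2/ERF factor of the primordium, rose from an implied 6.20 normalized counts in WT to 49.6 in dme (adjusted p = 1.99e-05 in the authors' deposited table). The cell cycle list had 11 higher and 2 lower genes among its 24. Mitotic cyclin genes were among the higher ones, with CYCB1;3 at 2.15 and CYCB1;2 at 1.53, while the inhibitor gene KRP4 stood at -1.60 and CYCD3;1, a G1 cyclin gene of shoot tissue, at -2.60 log2 units in the authors' deposited table. Of 12 growth-regulating factors and partners, which act against PLETHORA genes in the root, 1 was listed, GRF5 at -1.05 log2 units in the authors' deposited table. Of 11 chromatin regulators known to act on the root niche, 1 was listed, TSK at 1.26 log2 units in the authors' deposited table. Both shares, 8.33% and 9.09%, are below the 18.5% of protein-coding genes listed in either direction, but each rests on 1 gene. GRF5 is lower, and the 8.33% of its list is above the 4.83% of protein-coding genes listed as lower. Neither the 9 embryo regulators, which include LEC1, LEC2, FUS3 and ABI3, targets of BBM, nor the 7 cytokinin genes of the root transition zone nor the 10 shoot meristem genes such as WUS and STM held a listed gene.

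Of 18 markers of differentiated root tissue, 11 were listed as higher, as were the 3 genes, and 0 as lower, against 13.6% and 4.83% of annotated protein-coding genes. The root and green tissue marker lists were also written with earlier results of these data known. Their counts therefore cannot be weighed against those shares. The listed markers ranged from 1.30 (CPC) to 6.19 (CASP2) log2 units in the authors' deposited table. They include CASP1 of the endodermis at 3.25, RBOHC of the root hair at 3.83 and BGLU23 of the ER bodies at 2.14 log2 units, and WER of the epidermis at 8.02-fold, in the authors' deposited table. Of the vascular markers, XCP1 of the xylem stood at 1.54 log2 units in the authors' deposited table. The other 7 markers were not listed: PHO1, VND7, XCP2, APL and SUC2 of the vasculature, CASP5 of the endodermis and GL2 of the epidermis. Of 10 markers of green tissue, 5 were lower and 0 higher, from -1.11 (LHCB1.1) to -2.15 (GLK2) log2 units in the authors' deposited table. The small subunit genes of Rubisco, RBCS1A, RBCS1B, RBCS2B and RBCS3B, and the antenna gene CAB3 were not listed. A summed level over either marker list cannot be given, since unlisted genes have no value. More root cells in a seedling and more RNA per root cell cannot be told apart in whole seedlings, and the part of these markers in the PLETHORA values was not tested. DME itself stood at -1.55 log2 units in the authors' deposited table, with 2178 normalized counts on average.

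**Figure D4:**
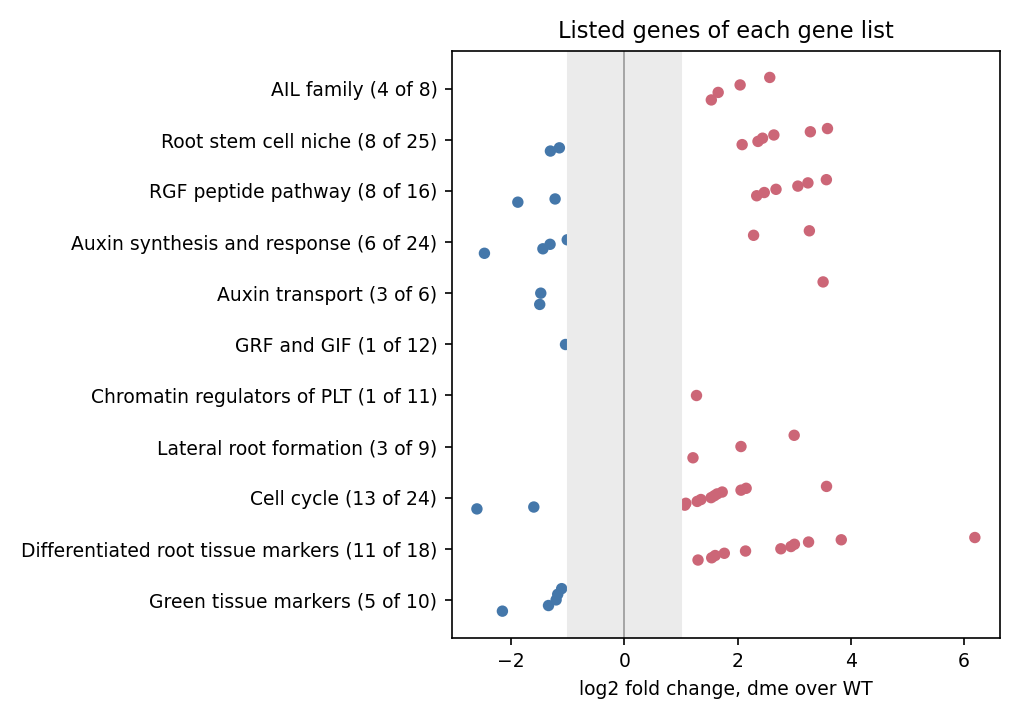
Log2 fold change (dme over WT) of each listed gene, by gene list, with the number listed of the number on the list; red is higher and blue lower in dme, and the grey band spans the changes under 2-fold that the deposited table leaves out. Lists with no listed gene are not drawn, and the 11 listed root tissue markers lie between 1.30 and 6.19, around the 3 PLETHORA genes.

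The bases before each gene were read because DME acts on methylated cytosine, which in plants is kept most stably at CG. The 250 bases before the annotated start are shown for the 3 genes, with CG in capitals, from TAIR10.1 at chr3:7300194-7300443, plus strand for PLT1, chr1:18976926-18977175, plus strand for PLT2 and chr5:5745749-5745998, minus strand for BBM.
PLT1: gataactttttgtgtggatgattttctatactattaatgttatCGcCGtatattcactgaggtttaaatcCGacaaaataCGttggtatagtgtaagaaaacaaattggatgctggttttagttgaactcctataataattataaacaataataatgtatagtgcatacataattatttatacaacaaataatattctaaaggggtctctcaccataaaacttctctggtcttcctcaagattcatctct
PLT2: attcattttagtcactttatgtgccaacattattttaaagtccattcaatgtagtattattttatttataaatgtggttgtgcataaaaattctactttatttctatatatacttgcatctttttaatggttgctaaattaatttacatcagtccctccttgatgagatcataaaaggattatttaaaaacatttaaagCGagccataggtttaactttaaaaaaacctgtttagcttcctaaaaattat
BBM: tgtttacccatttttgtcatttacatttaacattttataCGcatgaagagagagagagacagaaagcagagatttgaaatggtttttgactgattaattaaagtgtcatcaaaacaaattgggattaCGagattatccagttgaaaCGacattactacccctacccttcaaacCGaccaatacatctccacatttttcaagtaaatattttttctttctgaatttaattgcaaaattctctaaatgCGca

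PLT1 holds 4 CG dinucleotides in this window, BBM 5 and PLT2 only 1, against a median of 5 over the same window of 27443 protein-coding genes. Of those windows, 3.96% hold fewer CG than that of PLT2. The window of PLT2 is also poor in G and C, at 25.2% against a median of 31.2%, with 29.6% for PLT1 and 32.0% for BBM. The table analysed here holds no methylation values, so whether any of these cytosines is methylated was not measured. Auxin response factors bind TGTC-containing elements, and the windows were searched on both strands for TGTCTC and TGTCGG. From 250 bases before to 50 after the start, BBM held 1 TGTCTC, which 14.2% of all such windows hold, and PLT1 held 1 TGTCGG, which 5.12% hold. PLT2 held neither of them. The match in PLT1 is on the minus strand, read as CCGACA in the sequence shown. From 250 bases before to 50 after the start, the core TGTC alone was counted 5 times in BBM, 1 time in PLT1 and 0 times in PLT2. The median over all such windows is 2, and 81.5% of them hold it.

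Of the 30 annotated genes within 5 places on either side of the 3 genes, 3 were listed in the authors' deposited table, 2 of them higher and 1 lower, against 18.5% of annotated protein-coding genes listed in either direction. The 30 also include noncoding RNA genes and a pseudogene, which that share does not cover. WIP4, 9.84 kilobases downstream of PLT1, rose with it, while AT3G20820 on the other side of PLT1 stood at -1.35 log2 units in the authors' deposited table. PLT2 has a WIP gene at nearly the same distance, WIP5 at 9.13 kilobases, and that gene was not listed. AT5G17460, near BBM, stood at 1.81 log2 units in the authors' deposited table.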

How the data were processed

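Whole seedlings of WT and dme were compared, 3 libraries each, grouped by title. Trimmomatic 0.36, HISAT2 2.1.0, StringTie 2.1.3 and build TAIR10 are listed in the submitters' processing notes, while the differential test, counting and strand use are unstated in the sources used here. The mean normalized count is a signal deposited by the authors, with unstated scaling. The log2 fold change and the linear fold were deposited by the authors and taken as dme relative to WT, since the table is named for dme. The authors also deposited an adjusted p-value, whose adjustment is unstated. The depth of the libraries is unknown. Columns of per-sample values numbered 0, so the planned edgeR fit was not run.

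From these values, group means were computed as mean and fold imply for 3 against 3 libraries, and a bound on the standard error by dividing the size of the log2 fold change by the two-sided normal quantile of the adjusted p. A run on simulated data checked only the arithmetic of both. It could not check whether the authors' means are plain averages or their test a Wald test. Values were summarised over 15 lists of 199 genes. The members, the lists and the rule for naming genes (all listed genes of the family, niche, RGF, auxin and GRF lists, up to 4 of the others with the smallest adjusted p, DME and neighbours) were chosen with earlier results of these data known. Any gene named beyond it was picked with its value known. All 199 loci matched the RefSeq annotation of TAIR10.1, whose coordinates are its own. Some of the compared sequence is not reported here. Background shares use 27562 annotated protein-coding genes, some of which may not have been tested. Python 3.11.15, pandas 2.3.3, scipy 1.17.1, numpy 2.4.6 and matplotlib 3.10.9 were used. Alternatives were an adjusted p under 0.01, a 4-fold threshold, a minimum mean of 50, shifts of all log2 fold changes and the upstream bases alone for motifs.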

Additional observations from a re-analysis of the deposited data

How the results depend on the processing

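PLT1, PLT2 and BBM all stayed listed as higher at an adjusted p under 0.01 and with all log2 fold changes shifted by -0.5 or 0.5. The shift of 0.5 can only raise their folds. The other settings reuse the fold and adjusted p by which the genes were listed, so staying listed is a description only. With a 4-fold threshold BBM was lost, with a mean of at least 50 PLT2 was lost, and with a shift of -1 BBM was lost, leaving 2 genes each time by construction. With the 4-fold threshold the whole table held 2035 higher and 343 lower genes, and over the 15 lists 29 genes were higher in place of 45 and 3 lower in place of 18, fewer by construction. Over all counts of the members, lists and table and the motif shares, 91 of 110 alternative values stayed within 1.5 times. Those that stayed include counts of 0, which a stricter threshold cannot lower, and the losses of BBM and PLT2 above. The tally is therefore no measure of how stable the results are. Of the sequence windows before the start only, 10.9% hold TGTCTC and 4.16% TGTCGG. Leaving out a replicate, DESeq2 and a filter on low counts were not run, since no value per library is given. No paired analysis was possible because the table holds no column per library. Depth is unknown, and the low means of WOX5, RGF2 and YUC1 rest on few reads.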

Other observations

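The 2 genes described in the authors' deposited table with the quiescent centre and the 4 with the root cap were all higher in dme. This search was chosen after the values were seen, and SMB, BRN1 and BRN2 are also on the niche list above. AGL42, a MADS-box gene described there as expressed in the quiescent centre, stood at 2.21 log2 units in the authors' deposited table, and the small G protein gene SGP1 at 1.09. Beside SMB, BRN1 and BRN2, the homeobox gene HB20 is described with the root cap and stood at 2.54 log2 units with 370.0 normalized counts on average in the authors' deposited table. Of 9 genes whose description names the lateral root, BBM among them, 8 were higher and 1, AFB3, lower. The largest of these changes was that of XTH20, a cell wall enzyme gene, at 4.25 log2 units in the authors' deposited table. The share of higher genes in the whole table is 72.8%, and these small counts were not tested against it.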
